A study of Mus musculus with 24 samples.

Results

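The ubiquitin-specific proteases (USPs) were followed over 2 days in the mouse suprachiasmatic nucleus (SCN), which sets daily rhythms for the body. The members were all genes whose array symbol begins with Usp and a number, each represented by its single-symbol probe set of highest mean, which gave 55 of the 19938 genes on the array. The symbol rule also took in Usp6nl, which encodes a GTPase-activating protein of Rab5 and is no protease, and Usp46os2, a transcript opposite to Usp46. Of the 55 genes, 49 passed the filter on low values (log2 mean of at least 5.52, the 30th percentile of all genes) and were tested among 13956 genes. The 24 samples were SCN of C57/BL6 mice that had been entrained for 3 weeks to 12 h of light and 12 h of darkness and were then kept in complete darkness. All samples share this strain and treatment and differ in circadian time (CT), from CT 18 to CT 64 in steps of 2 h. Each sample was RNA pooled from 3 mice on 1 array, so no time has a replicate. The 12 arrays up to CT 40 are called the first cycle here, and the 12 from CT 42 the second, which repeats the same times of day. Sex and age are not given in the sources used here.

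USPs are cysteine proteases that cut ubiquitin from proteins and so oppose the ligases that mark proteins for the proteasome, for endosomal sorting or for signalling. Several act on histones, others on receptors or at the proteasome and mitochondria. The circadian clock relies on timed destruction of its PER and CRY repressors, and USP2, USP7 and USP9X have been described as proteases that remove ubiquitin from clock proteins. Usp2 is also known as a transcript that cycles in many peripheral tissues under the control of CLOCK and BMAL1.

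Against 7.65% of all genes tested, 4 of the 49 tested members (8.16%) were called rhythmic over 24 h, that is, had an adjusted p under 0.05 in limma's moderated F test of the 24-h cosine and sine terms. They were Usp36, Usp11, Usp22 and Usp29. The share of members was thus near that of all genes. Usp2 was not among them. The median amplitude, in log2 units from mean to peak, was 0.07 over the members and 0.07 over all genes tested.

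RefSeq promoters (GRCm38.p6) were found for 42 of the 55 genes. The 250 bases before the start are shown for 3 of the called genes, for Usp31, whose call depends on the arrays used and whose promoter holds an E-box, and for Usp2. Capitals mark matches on either strand to the motifs searched. These were the E-box CACGTG that CLOCK and BMAL1 bind, its variant CACGTT, the cAMP response element TGACGTCA, its core TGACG, which lies within it, and AGGTCA, the site core of REV-ERB and ROR receptors.
Usp36 (chr11:118290245-118290494, - strand): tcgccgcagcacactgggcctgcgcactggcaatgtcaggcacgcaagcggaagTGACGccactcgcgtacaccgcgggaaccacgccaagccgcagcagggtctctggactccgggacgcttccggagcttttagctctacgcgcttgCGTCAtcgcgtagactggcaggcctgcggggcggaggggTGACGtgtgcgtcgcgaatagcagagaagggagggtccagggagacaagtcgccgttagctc
Usp11 (chrX:20703659-20703908, + strand): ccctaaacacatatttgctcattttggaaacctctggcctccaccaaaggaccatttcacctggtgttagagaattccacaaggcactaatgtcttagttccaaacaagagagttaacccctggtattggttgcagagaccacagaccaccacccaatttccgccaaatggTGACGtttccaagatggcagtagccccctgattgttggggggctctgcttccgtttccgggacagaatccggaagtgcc
Usp29 (chr7:6730333-6730582, + strand): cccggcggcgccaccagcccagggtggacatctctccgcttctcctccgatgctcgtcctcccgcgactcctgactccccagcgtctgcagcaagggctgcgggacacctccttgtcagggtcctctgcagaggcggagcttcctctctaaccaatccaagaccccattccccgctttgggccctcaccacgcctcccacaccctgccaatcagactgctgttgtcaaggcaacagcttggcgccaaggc
Usp31 (chr7:121707443-121707692, - strand): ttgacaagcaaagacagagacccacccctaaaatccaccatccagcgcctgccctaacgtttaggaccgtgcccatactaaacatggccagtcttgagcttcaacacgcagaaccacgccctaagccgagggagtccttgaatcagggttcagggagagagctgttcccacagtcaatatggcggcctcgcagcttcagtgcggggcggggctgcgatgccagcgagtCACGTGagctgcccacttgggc
Usp2 (chr9:44084670-44084919, + strand): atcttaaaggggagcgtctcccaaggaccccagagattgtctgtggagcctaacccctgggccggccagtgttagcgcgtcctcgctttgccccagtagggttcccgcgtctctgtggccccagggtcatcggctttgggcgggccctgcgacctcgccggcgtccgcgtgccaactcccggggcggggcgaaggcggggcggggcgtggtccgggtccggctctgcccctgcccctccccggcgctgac

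The promoter of Usp36 held TGACG 3 times, at 196, 101 and 62 bases before the start, and that of Usp11 held it once, at 79 bases. The promoter of Usp31 held CACGTG at 22 bases before the start. No searched letters lay in the 250 bases before the start of Usp29 or of the Usp2 start that the table gives. Over the 42 members with a promoter, CACGTG was found in 4 (Usp4, Usp6nl, Usp16 and Usp31), or 9.52% against 6.86% of 27025 genes. TGACG was found in 9 (21.4% against 19.8%), CACGTT in 2 (4.76% against 4.50%), AGGTCA in 3 (7.14% against 15.8%) and TGACGTCA in 0 (against 1.77%). The promoters of the members had a median of 64.4% G and C per gene, against 52.4% over all promoters. The 27025 genes are more than the 19938 on the array and were not matched to the members. None of these differences was tested.

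All 11 listed SCN markers, among them Avp, Vip and Six6, lay above the filter, which removes only the lowest 30% of all genes. Of 9 measured markers of other hypothalamic nuclei, 8 lay above it too, among them Oxt (mean 11.85), Sst (11.74) and Trh (10.23). The mean of these markers ran from -0.36 at CT 52 to 0.61 at CT 28, and its part in the results was not tested. The arrays at CT 40, CT 62 and CT 64 had the narrowest ranges, with interquartile ranges of 2.48, 2.67 and 2.65 log2 units against 2.72 to 2.90 on the others. Over 1190 genes of smell and pheromone receptors their means lay 0.34, 0.19 and 0.16 above the series mean, against at most 0.04 elsewhere. This mean is called the array background here. On it 19 members had a called negative slope beside the 24-h terms, against 27.4% of all genes, and 2 a positive slope (Usp43 and Usp17lc), against 10%. Without these 3 arrays 0 members had one, against 0% of all genes for negative slopes, by limma. Among the 49 tested members, 24 had their lowest value at CT 40 and 6 at CT 64. The anterior pituitary marker mean (8 of 9 genes measured, 3 above the filter) ran from 0.37 to 1.81 above its series mean at CT 18 to CT 26 and no higher than 0.25 afterwards. On that mean 0 members had a called slope by limma, against 0.0143% of all genes for positive slopes. The oligodendrocyte marker mean (7 of 8 measured, all 7 above the filter) ran from -0.74 at CT 40 to 0.40 at CT 20. In such tissue samples, fewer cells of a type and less RNA per cell cannot be told apart.

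**Figure D1:**
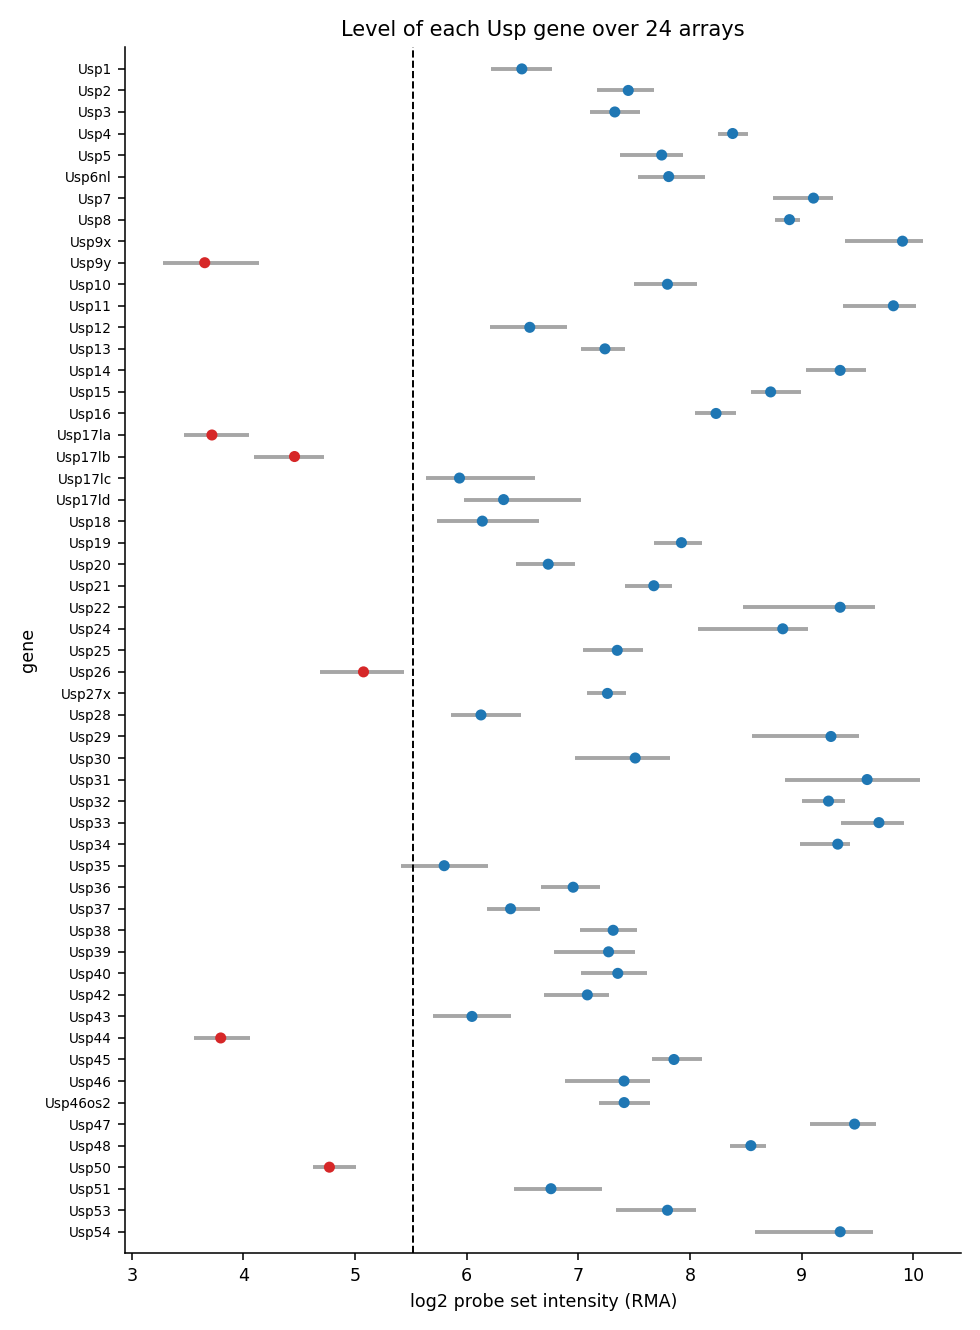
Level of each of the 55 genes as log2 probe set intensity. Points are means over 24 arrays, bars run from the lowest to the highest array, and the dashed line is the filter at 5.52. The 6 genes in red lie left of it and were not tested. Probe sets differ in response, so the order of genes along the axis is no ranking of their RNA.

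Among the members named for clock proteins, 0 of 3 were called rhythmic, against 7.65% of all genes. Usp2 measured, from CT 18 to CT 40, 7.17, 7.44, 7.40, 7.46, 7.21, 7.51, 7.40, 7.42, 7.53, 7.32, 7.63 and 7.23 log2 units. From CT 42 to CT 64 it measured 7.39, 7.58, 7.45, 7.36, 7.55, 7.36, 7.46, 7.55, 7.56, 7.68, 7.48 and 7.59. Its lowest array was CT 18 and its highest CT 60, and the subjective day (circadian times 0 to 10, median 7.46) and the subjective night (12 to 22, median 7.45) overlapped almost entirely. The fitted 24-h amplitude was 0.06 ± 0.04 (SE, 24 arrays) and the fitted peak 10.6 ± 2.49 h (limma adjusted p = 0.509). The 95% joint confidence region of the cosine and sine terms reached an amplitude of 0.15, so a change of more than 1.23-fold from trough to peak lay outside it. The adjusted p of Usp2 ran from 0.358 to 0.703 over 24 leave-one-out fits and from 0.321 to 0.893 over 15 other settings. The probe set is annotated with 3 curated RefSeq transcripts of the gene, so it gives 1 value for its isoforms together.

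The mean of Usp2 was 7.39 in the first cycle and 7.50 in the second, a difference of 0.11 ± 0.05 that did not pass over all genes (limma adjusted p = 0.537). Usp2 also followed the mean of 5 general neuron markers, with a slope of 0.87 ± 0.24 log2 units per unit of that mean beside the 24-h terms (limma adjusted p = 0.0128), a fit chosen after seeing the data. In that fit 10 of 49 members had a called positive slope, against 14.8% of all genes, and 1 a negative one, against 3.17%. Without CT 40, CT 62 and CT 64 the slope of Usp2 was 1.13 ± 0.32 (adjusted p = 0.128), and 0 of 49 members passed by limma, against 0.086% of all genes for positive slopes. The genes most like Usp2 over the 24 arrays were Naa60 (Pearson r = 0.74), Ctif (0.71), Smyd5 (0.68), Wdr74 (0.68), Siglech (0.65) and Glis2 (0.65), and the least like were Cdk20 (-0.68), Trpc6 (-0.68) and Klhl9 (-0.66). All share the same arrays and their differences in range, and none of the 9 was called rhythmic. Over 11 genes of the clock and its outputs, r with Usp2 ran from -0.21 (Nfil3) and -0.16 (Arntl) to 0.42 (Per1 and Cry1). Clock (0.05) and Rgs16 (0.04) lay near 0, and Cry2, Nr1d1, Dbp, Per2 and Per3 had 0.21, 0.21, 0.27, 0.39 and 0.40. By r with Usp2, Per1, Cry1, Per3 and Per2 stood at percentiles 96.4, 96.2, 95.5 and 94.6 of all tested genes. Dbp, Nr1d1 and Cry2 stood at 83.8, 77.3 and 76.6. Clock and Rgs16 stood at 52.6 and 51.9, and Arntl and Nfil3 at 21.8 and 15.9.

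Usp9x, an X-linked protease of many neuronal substrates, had values from 9.39 to 10.09 with a median of 9.95. Its amplitude was 0.13 ± 0.04, its peak 2.49 h, and it did not pass (limma adjusted p = 0.0724). The lowest value was that of CT 40, and without the 3 arrays of narrow range the amplitude was 0.05 (adjusted p = 0.393). Usp7, the protease of the p53 regulator MDM2, had values from 8.74 to 9.28, an amplitude of 0.05 ± 0.04 and an adjusted p of 0.601 by limma.

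**Figure D2:**
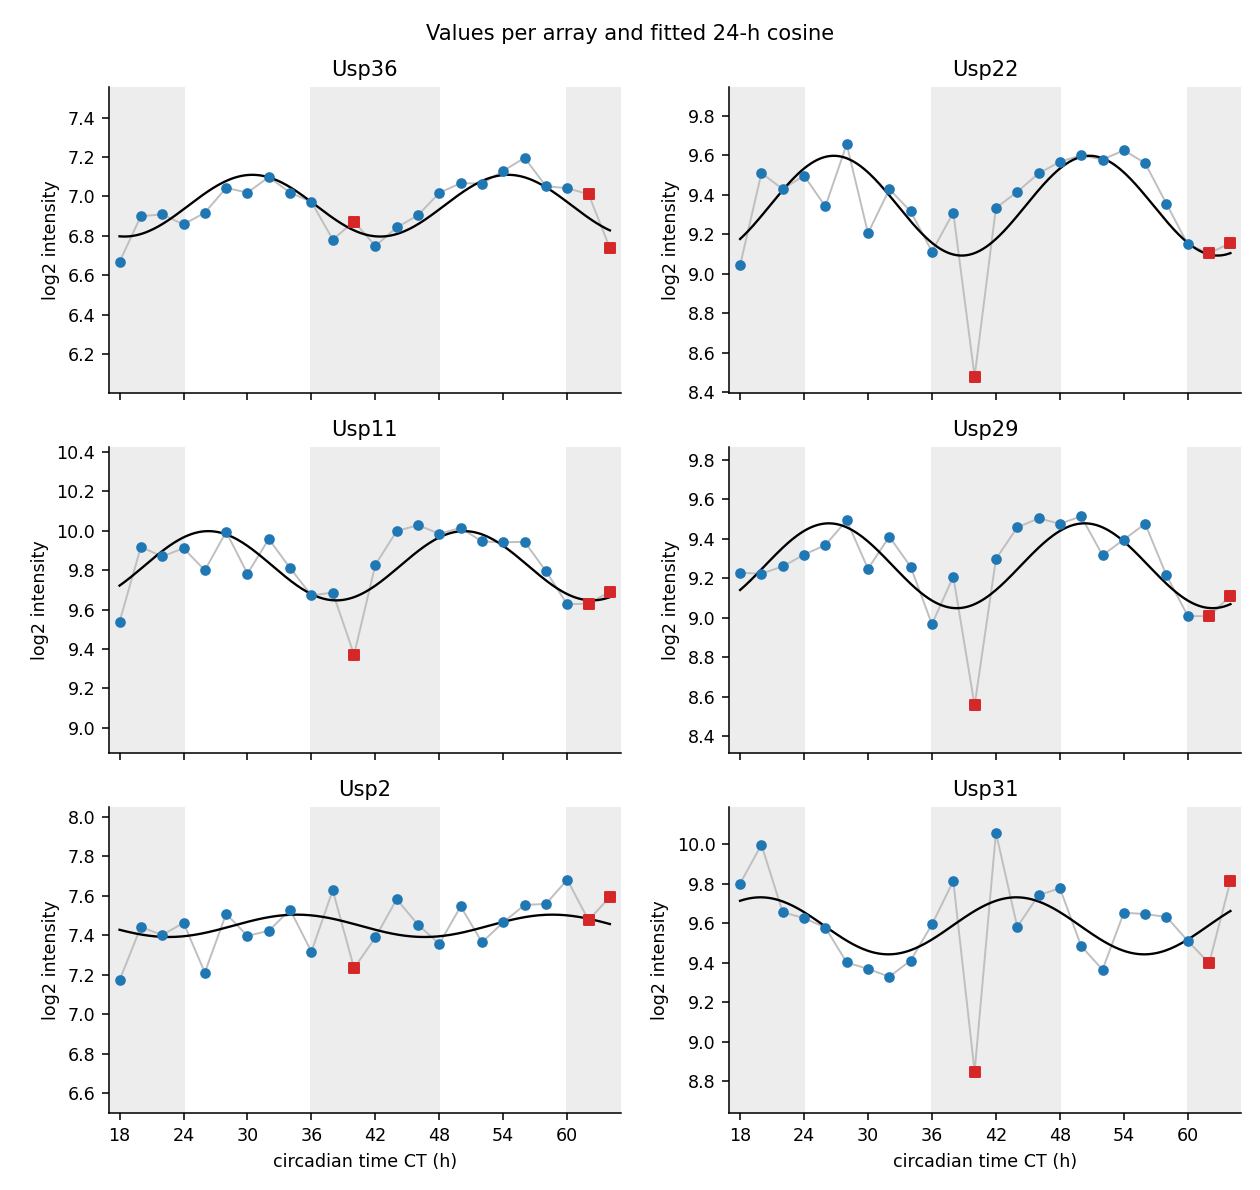
Log2 intensity of 6 genes against circadian time, 1 point per array, with the cosine fitted to all 24 arrays in black. Grey bands are the subjective night, red squares are CT 40, CT 62 and CT 64, and every panel spans the same number of log2 units. Usp36 follows its curve on both days, Usp2 shows no such wave, and CT 40 lies far below the curve for Usp22, Usp29 and Usp31.

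Of the proteases of histones and the nucleus, a group drawn up by hand, 3 of 11 tested were called, against 7.65% of all genes. No group of members was tested against that share. Of the 3, Usp36 alone was still called beside the array background. Usp36 is a nucleolar protease that acts in ribosome production. Its values ran from 6.67 (CT 18) to 7.20 (CT 56), with a median of 6.99. In the first cycle the highest value was 7.10 at CT 32, and in the second 7.20 at CT 56, which is the same time of day. On 7 of the 12 arrays of the subjective day Usp36 lay above all 12 of the night, and on 5 night arrays it lay below all of the day. The amplitude was 0.16 ± 0.03 and the peak 6.45 ± 0.634 h, a change of 1.24-fold from trough to peak (limma adjusted p = 0.00181). Fitted to each cycle alone, the peak was at 6.51 and 6.41 h and the amplitude 0.13 and 0.18. Usp36 was called in all 24 leave-one-out fits (adjusted p from 0.00124 to 0.00584). Beside the array background its amplitude was again 0.16 (adjusted p = 0.00161).

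Usp22, the H2B protease of the SAGA co-activator complex, had the largest amplitude of the family on all arrays, at 0.25 ± 0.05. Usp22 changed 1.42-fold from trough to peak and peaked at 2.79 ± 0.770 h (limma adjusted p = 0.0105). Its values ran from 8.48 (CT 40) to 9.66 (CT 28), with a median of 9.38. The day arrays spanned 9.21 to 9.66 and the night arrays 8.48 to 9.51, so the groups overlapped. On 6 night arrays Usp22 lay below all of the day. Its amplitude was not the largest in every setting. Without the arrays of narrow range Usp31 had 0.21 and Usp22 0.18, and beside the array background they had 0.20 and 0.15. With the oligodendrocyte covariate on all arrays (0.28) or without the arrays of high pituitary marker mean (0.28), Usp22 again had the largest amplitude. Usp11, an X-linked nuclear protease with roles in DNA repair, ran from 9.37 (CT 40) to 10.03 (CT 46), with a median of 9.85. Its amplitude was 0.18 ± 0.03, or 1.28-fold from trough to peak, and its peak 2.33 ± 0.755 h (limma adjusted p = 0.00942). It lay below every day array on 7 of the 12 night arrays, while its highest value fell on a night array.

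Usp29, an imprinted gene that is expressed from the paternal allele beside Peg3, was listed with the germline members but stood well above the filter here. Its values ran from 8.56 (CT 40) to 9.51 (CT 50), with a median of 9.28. The amplitude was 0.21 ± 0.04, or 1.35-fold from trough to peak, and the peak 2.32 ± 0.787 h (limma adjusted p = 0.0118). Fitted to each cycle alone, Usp29 peaked at 3.41 and 1.18 h and Usp11 at 3.41 and 1.27 h, shifts that were not called (limma adjusted p of the interaction with cycle 0.9999 for each).

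The peaks of Usp22, Usp11 and Usp29 lie opposite to CT 40, CT 62 and CT 64, and these arrays bear on their size. Without them the amplitudes were 0.18, 0.14 and 0.16, and all 3 genes were still called (limma adjusted p = 0.0280, 0.0404 and 0.0358). Beside the array background the amplitudes were 0.15, 0.12 and 0.13, and none of the 3 was called (0.0924, 0.0924 and 0.137). Each of the 3 also rose with the neuron marker mean, with slopes of 1.46 ± 0.30, 0.85 ± 0.22 and 1.33 ± 0.24 on all arrays (limma adjusted p = 0.00130, 0.00856 and 0.000585). Without CT 40, CT 62 and CT 64 the slopes were 0.83 ± 0.38, 0.74 ± 0.31 and 0.97 ± 0.31, and none was called (0.361, 0.314 and 0.184). That mean (5 of 5 markers above the filter) ran from -0.39 at CT 40 to 0.20 at CT 50 and had a fitted wave of its own, of amplitude 0.12 at 2.84 h. The part of neuron content in these rhythms was not tested.

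The other 8 tested members of the histone and nuclear group were not called. Usp10, which acts on p53, peaked at 1.22 h with amplitude 0.12 ± 0.04 in the fit (limma adjusted p = 0.0847). Usp42 had 0.10 ± 0.04 at 2.50 h (0.145). Usp16, which acts on histone H2A, was nearly flat, with values from 8.04 to 8.41 and an amplitude of 0.02 ± 0.03. Usp51, an H2B protease, was called without CT 18 to CT 26, the arrays of high pituitary marker mean, with amplitude 0.21 and peak 13.2 h (limma adjusted p = 0.0430). On all arrays its amplitude was 0.13 (adjusted p = 0.195).

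**Figure D3:**
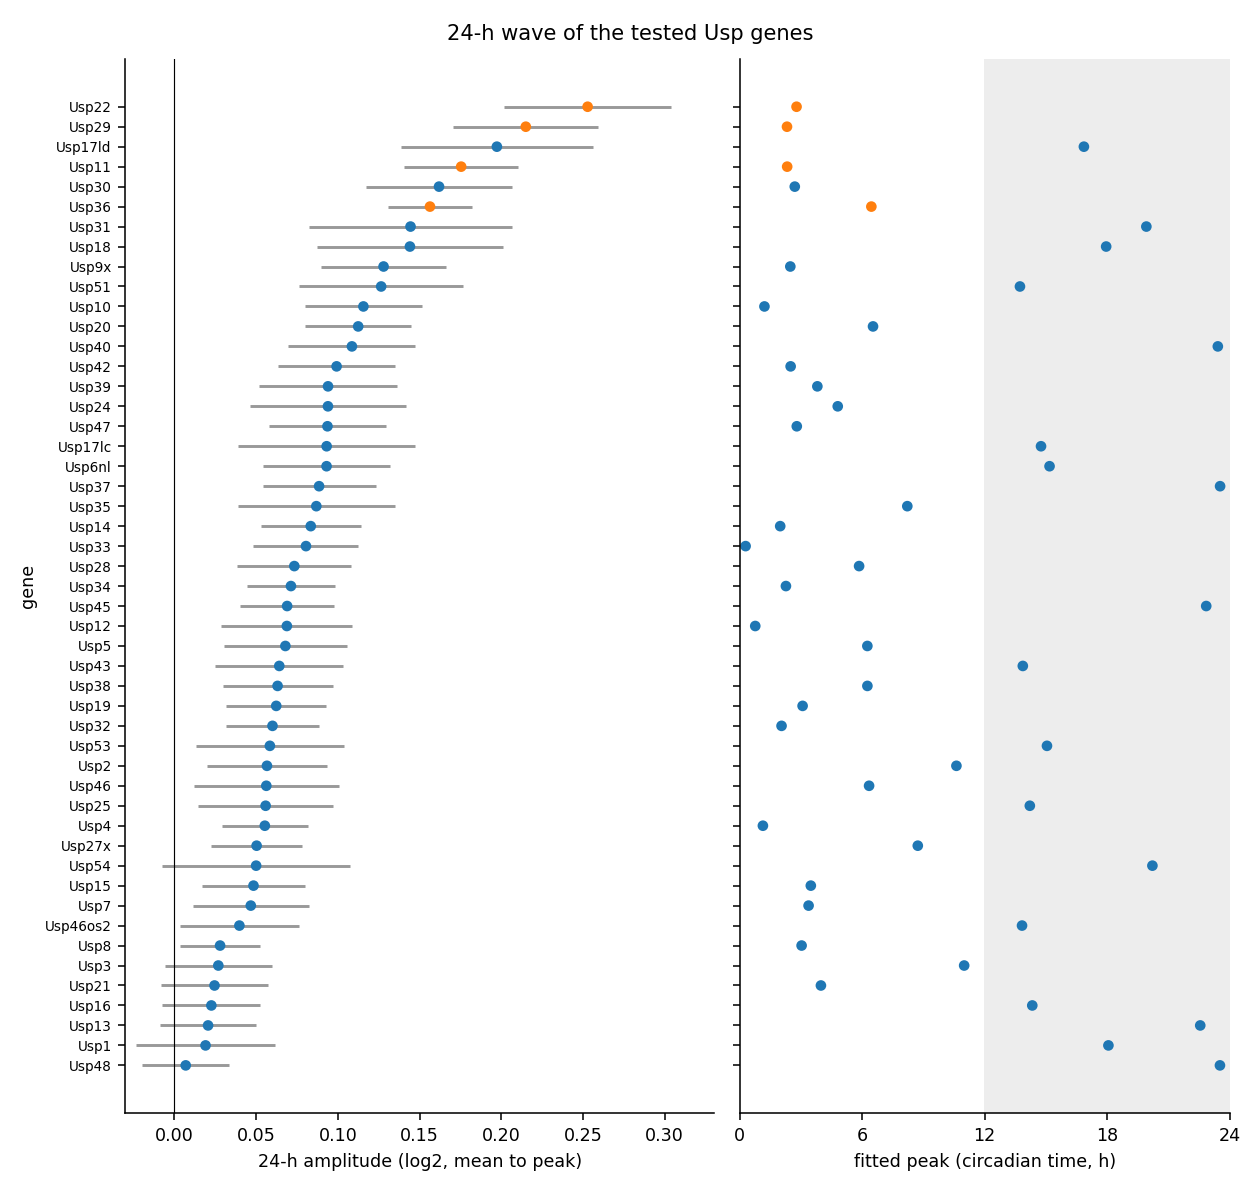
Amplitude of the fitted 24-h wave of the 49 tested genes, with bars of 1 SE on each side (left), and fitted peak time with the subjective night in grey (right). The 4 called genes, in orange, have amplitudes from 0.16 to 0.25 and peak between 2.32 and 6.45 h; Usp17ld and Usp30 have amplitudes in the same range and were not called.

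No member of the membrane-anchored or endosomal receptor group was called on all arrays (0 of 5). Usp30, which sits on the outer mitochondrial membrane and restrains mitophagy, had a fitted amplitude of 0.16 ± 0.04 at 2.70 h (limma adjusted p = 0.0540). Its values ran from 6.97 (CT 40) to 7.82 (CT 54). Without the 3 arrays of narrow range its amplitude was 0.09 (0.337), and without CT 18 to CT 26 it was called, at 0.20 (0.0437). On all arrays Usp30 was also called with quantile normalisation, median centring, the filter at the 50th percentile or the oligodendrocyte covariate. Usp20, which with its relative Usp33 serves receptor recycling, had amplitude 0.11 ± 0.03 and peak 6.53 h (limma adjusted p = 0.0653). It was called with the filter at the 50th percentile or with the oligodendrocyte covariate, a fit that called 24% of all genes. Usp20 had its highest value of the second cycle at CT 56 (6.97), as did Usp36, and its lowest of the first cycle at CT 18 (6.51). Usp33 ran from 9.35 to 9.91, with an amplitude of 0.08 ± 0.03 (0.197). Usp48 had the smallest amplitude of the tested members, at 0.01 ± 0.03.

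Of the proteases of the proteasome, of free ubiquitin chains and of endosomes, 0 of 4 were called, against 7.65% of all genes. Usp14, which trims ubiquitin at the proteasome, had amplitude 0.08 ± 0.03 and peak 1.99 h (limma adjusted p = 0.157). Usp8, which sorts receptors at endosomes, had the narrowest values of the 55 genes, from 8.76 to 8.99, and an amplitude of 0.03 ± 0.02. Usp5, which takes free chains apart, had 0.07 ± 0.04 and Usp13 0.02 ± 0.03. The proteases that the WD-repeat protein UAF1 activates were not called either (0 of 3, against the same 7.65%). Usp12 had an amplitude of 0.07 ± 0.04, Usp46, known for its effect on behaviour in mice, 0.06 ± 0.04 and Usp1, a protease of DNA repair, 0.02 ± 0.04.

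In the signalling group 0 of 15 members were called on all arrays, in the deposited values without a covariate, against 7.65% of all genes. Usp18, the interferon-induced protease that removes ISG15, ran from 5.73 (CT 34) to 6.64 (CT 38), with a fitted peak at 17.9 h and an amplitude of 0.14 ± 0.06 that did not pass (limma adjusted p = 0.190). Usp34, a protease of Wnt signalling, and Usp47 had amplitudes of 0.07 and 0.09 with peaks at 2.27 and 2.80 h (0.165 and 0.174).

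For Usp31 the call depended on the arrays used. Its values ran from 8.85 (CT 40) to 10.06 (CT 42), with a median of 9.61, and its highest array of the first cycle was CT 20. On all arrays the amplitude was 0.14 ± 0.06 and the peak 19.9 h (limma adjusted p = 0.241). Without CT 40, CT 62 and CT 64, where 4.87% of all genes were called, its amplitude was 0.21 ± 0.04 and its peak 18.1 h (adjusted p = 0.00814). With the array background covariate, where 3.83% of all genes were called, these were 0.20 ± 0.05 and 16.6 h (0.0356). Usp6nl was called in the same settings, with amplitudes of 0.16 and 0.18 and peaks at 15.5 and 14.4 h (0.0115 and 0.00560). On all arrays it had 0.09 ± 0.04 (0.222). Usp25 was called beside the array background (0.15 at 13.8 h, limma adjusted p = 0.0378), and not without the 3 arrays (0.13, 0.0735) or on all arrays (0.06, 0.586).

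Each gene was also fitted on the mean of the markers of oligodendrocytes, the myelin-forming cells, beside the 24-h terms. This fit was chosen after seeing the data. On all 24 arrays 11 of 49 members had a called positive slope, a share near the 18.5% of all genes. A negative slope was called for 1 member, against 5.92% of all genes. Without the 3 arrays of narrow range 3 of 49 members had a called positive slope, against 3.48% of all genes, a difference not tested. They were Usp54 (0.43 ± 0.09 log2 units per unit of the marker mean, limma adjusted p = 0.00207), Usp25 (0.40 ± 0.09, 0.00542) and Usp31 (0.43 ± 0.11, 0.0197). Usp54 ran from 8.58 (CT 40) to 9.64 (CT 42), and Usp25 from 7.04 (CT 40) to 7.58 (CT 20), where CT 20 also had the highest marker mean. On the astrocyte marker mean 16 members had a called positive slope on all arrays, against 23.8% of all genes, and 2 a negative one, against 8.51%. Without the 3 arrays 2 did, against 4.05%. These were Usp25 (0.72 ± 0.19, limma adjusted p = 0.0299) and Usp54 (0.75 ± 0.19, 0.0257).

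The oligodendrocyte mean itself had a fitted 24-h wave of amplitude 0.09 with its peak at 13.3 h, which was not tested. That wave was fitted to all 24 arrays, over which the mean ran from -0.74 to 0.40. The lowest value was that of CT 40, which is among the 3 arrays of narrow range. The wave of the mean was not fitted without these 3 arrays, so its size there is not known. With that mean as a covariate and without the 3 arrays, 3 of 49 members were called over 24 h, against 2.93% of all genes. They were Usp36, Usp22 and Usp31. Usp11 and Usp29 were not called there, with amplitudes of 0.16 and 0.14 (limma adjusted p = 0.0712 and 0.149). Usp31 had amplitude 0.17 ± 0.03 and peak 19.8 h (limma adjusted p = 0.00432). Usp25 then had 0.05 ± 0.03 (not called) and Usp6nl 0.12 ± 0.04 (0.103). With the covariate on all 24 arrays, Usp31 had 0.16 ± 0.04 (0.00556), in a fit that called 24% of all genes.

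**Figure D4:**
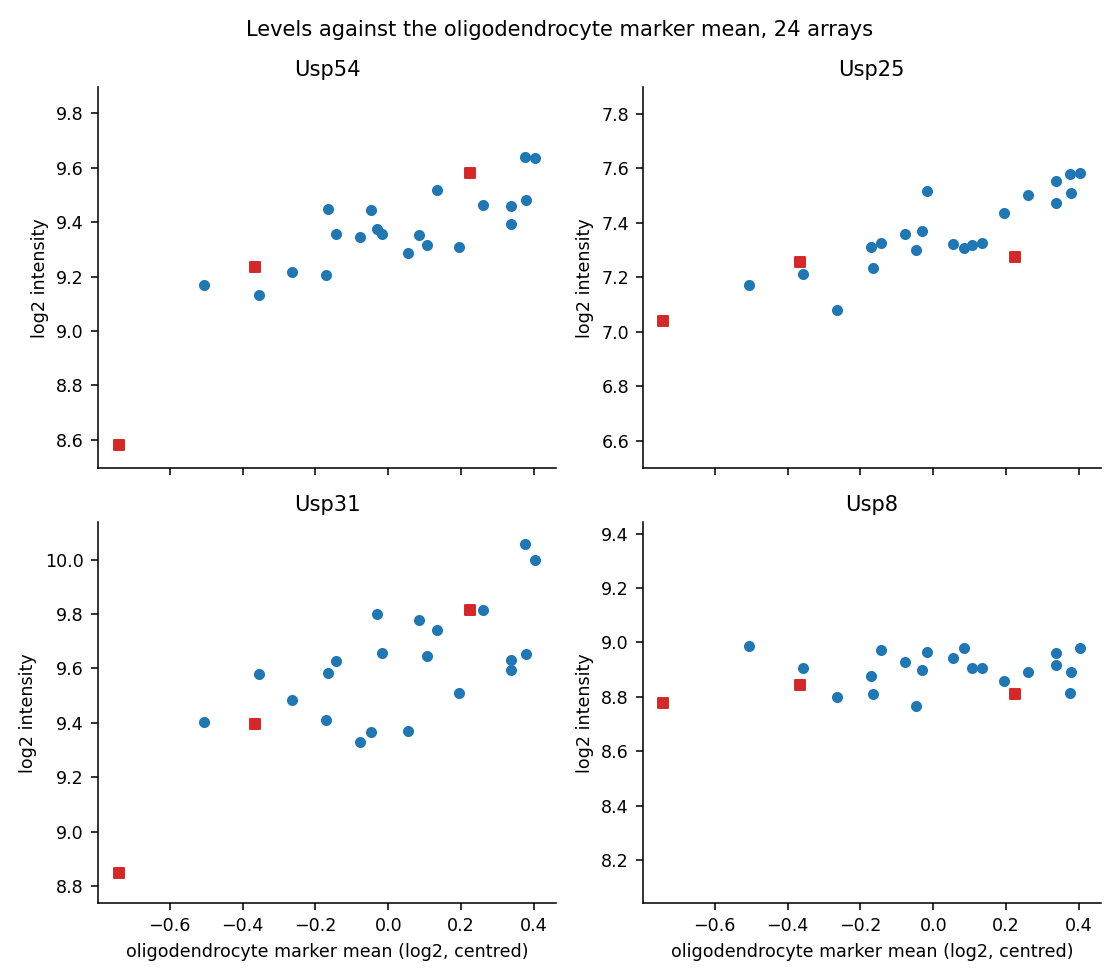
Log2 intensity of Usp54, Usp25 and Usp31, and of Usp8 as a gene of narrow range, against the oligodendrocyte marker mean of the same array. Each point is 1 of 24 arrays, red squares are CT 40, CT 62 and CT 64, and the lowest marker mean, -0.74, is CT 40. Usp54, Usp25 and Usp31 tend to rise with the marker mean, and Usp8 stays between 8.76 and 8.99. At CT 36, CT 54 and CT 58, where the marker mean is high, Usp31 lies near its median of 9.61.

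Members long annotated as lacking a working protease site were not called rhythmic (0 of 3, against 7.65% of all genes). Besides Usp54 these were Usp53, with values from 7.34 to 8.06 and an amplitude of 0.06 ± 0.05, and Usp39, a spliceosome protein, with 0.09 ± 0.04 at 3.81 h (limma adjusted p = 0.268). Of the members with tandem copies or germline expression, Usp17ld and Usp17lc were brightest at CT 40 (7.03 and 6.61), the array of highest background. The Usp17l copies are nearly identical in sequence, so their probe sets may share signal. Usp17ld had amplitude 0.20 ± 0.06 and peak 16.9 h, which did not pass (limma adjusted p = 0.0732). Usp17la, Usp17lb, Usp26, Usp44, Usp50 and the Y-linked Usp9y lay below the filter, with means from 3.65 to 5.08.

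**Figure D5:**
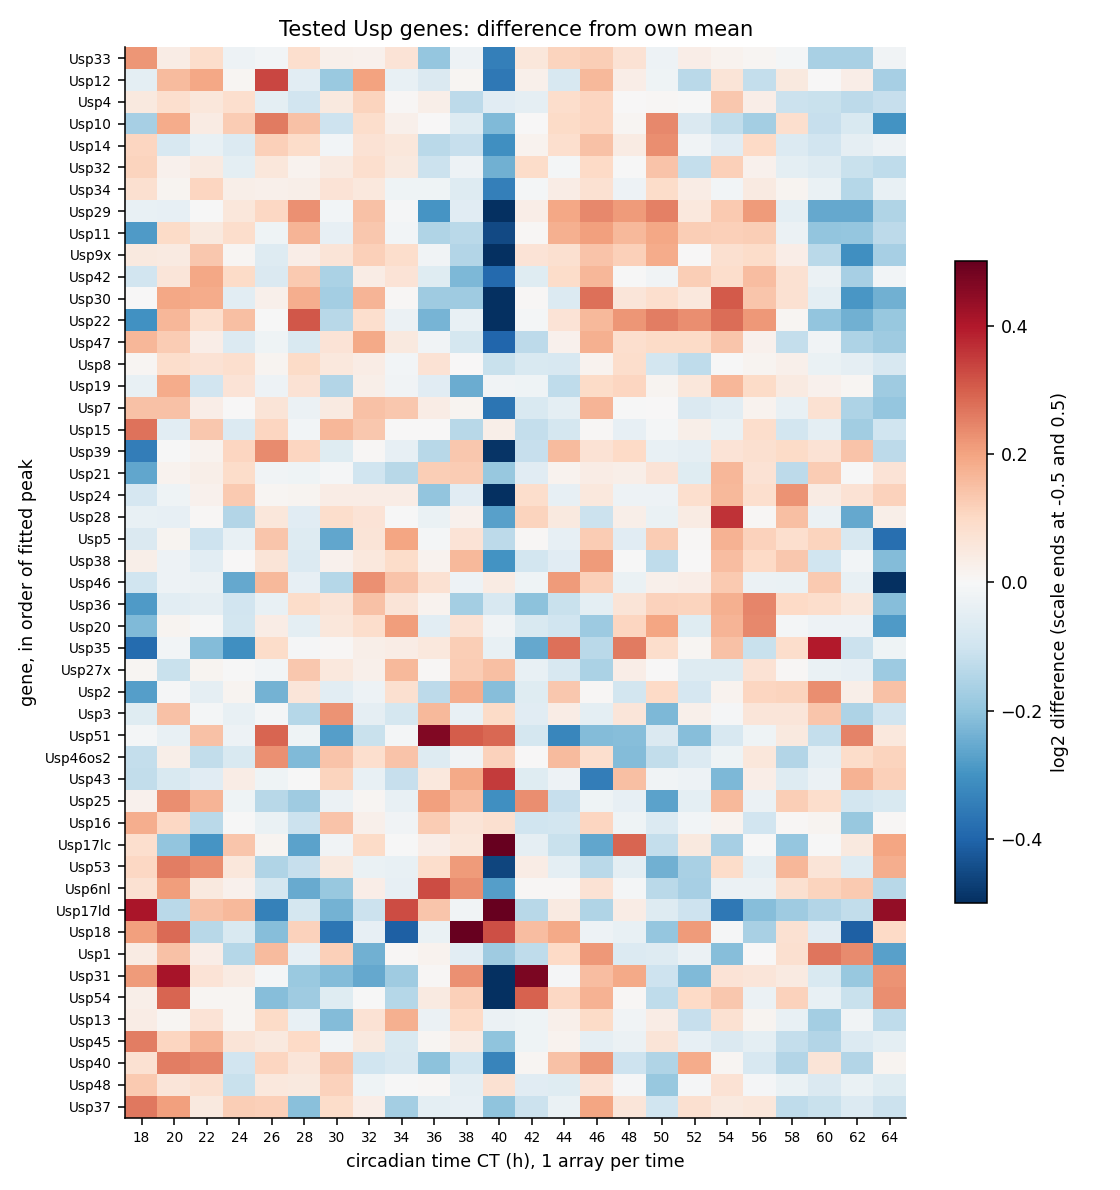
Difference of each tested gene from its own mean over 24 arrays, in log2 units, with genes in order of fitted peak from top to bottom and 1 column per array. The column at CT 40 is the darkest blue for many genes, where 24 of the 49 have their lowest value, and Usp17ld and Usp17lc are high there.

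Beyond the 24-h wave, the tests of cycle, of change in rhythm between cycles and of a 12-h wave called no member. Between the cycles 0 of 49 were called by limma against 0% of all genes, with 6 members at an unadjusted p under 0.05 (12.2%, against 8.71% of all genes). The smallest p values were those of Usp27x (second minus first cycle -0.09 ± 0.04), Usp51 (-0.17 ± 0.06) and Usp45 (-0.09 ± 0.04), with limma adjusted p of 0.490, 0.490 and 0.497. For the change in rhythm between cycles 0 of 49 were called against 0% of all genes, and 1 had an unadjusted p under 0.05. For a 12-h rhythm 0 of 49 were called against 0.0358% of all genes, and 11 had an unadjusted p under 0.05 (22.4%, against 21.9%). The smallest 12-h p was that of Usp9x, with amplitude 0.12 ± 0.03 (limma adjusted p = 0.115).

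Of all genes tested, 7.65% were called over 24 h, and none of the lists that follow was tested against that share. Of 31 tested deubiquitinases of other families, 1 was called over 24 h, Vcpip1, a partner of the VCP segregase (amplitude 0.10 ± 0.03, peak 2.56 h, limma adjusted p = 0.0389). Of 12 tested genes listed as partners of USPs, 0 were called. The 12 include the member Usp6nl, which the list holds although it encodes a GTPase-activating protein of Rab5. The smallest p values were those of Wdr48, which encodes UAF1 (0.11 ± 0.04, peak 3.06 h, limma adjusted p = 0.137), and Vps4a (0.11 ± 0.04, 0.137). Of the 6 listed ubiquitin and activating enzyme genes 1 was measured here, Uba6, which was not called (0.12 ± 0.04, 0.0748). Of 9 tested ligases that act on clock proteins 3 were called, Fbxl21 (0.51 ± 0.06, peak 6.27 h), Huwe1 (0.14 ± 0.03, 1.70 h) and Stub1 (0.15 ± 0.04, 2.74 h). Of 18 tested genes of the clock and its outputs 15 were called. Those of smallest p had amplitudes of 0.45 (Per2), 0.43 (Dbp), 0.57 (Nr1d1), 0.27 (Nfil3), 0.33 (Per1) and 0.19 (Nr1d2), against 0.06 for Usp2 and 0.16 for Usp36 on the same arrays.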

How the data were processed

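Per the submitters' processing notes, the authors used Affymetrix Expression Console and RMA 1.3.1.187, and they deposited probe set values on the log2 scale. Per the labels' protocols, total RNA was amplified with the Pico WTA V2 kit. The genome build is not given in the sources used here. Of 35556 probe sets, 21789 carried 1 gene symbol, 1621 several and 12146 none in the annotation given, and 21698 matched RefSeq GRCm38.p6, which changed 0 symbols. Probe sets with several symbols, such as that of Usp49, were left out. Probe sets differ in response, so no result rests on the level of one gene against that of another. Levels served for the filter, the choice of probe set and the choice of genes to name. With 1 array per time, the error of each fit is the scatter of arrays about it (21 residual degrees of freedom in the 24-h model), and their number limits the precision.

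All 13956 genes were fitted with limma 3.58.1 (R 4.3.3), with Benjamini-Hochberg adjustment and calls at an adjusted p under 0.05. The models held a 24-h wave, a difference between cycles, the interaction of both, or a 12-h wave. Errors of amplitudes and peaks are standard errors by the delta method. The fits were also run on simulated data with independent noise for each gene, so without effects shared by an array. At a size of 0.15 log2 units 53.7% of 24-h waves, 46.3% of 12-h waves and 23.9% of differences between cycles were called. At 0.3 these shares were 92.5%, 95.5% and 83.6%. The members and lists were chosen with earlier results of these data known. The text names Usp2, every called member, the 8 members of smallest 24-h p, the 2 of highest level in each role list, every member below the filter, called or nearest genes of the pathway lists, and the genes most and least correlated with Usp2. Members named for a slope, an alternative setting or their role were chosen after their values were seen, as were the slopes on marker means, the fits without CT 18 to CT 26 and those with the oligodendrocyte covariate without CT 40, CT 62 and CT 64. Figures and summaries were made in Python 3.11.15.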

Additional observations from a re-analysis of the deposited data

How the results depend on the processing

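The 4 members called over 24 h numbered 4 to 6 in the leave-one-out fits. They also numbered 4 to 6 with array weights, median centring or quantile normalisation, with other filters, a trended prior or every probe set, with a pituitary or linear time covariate, and without CT 40, CT 62 and CT 64 or CT 18 to CT 26. In each of these settings the 4 genes called on all arrays were among them. The count was 13 with the oligodendrocyte covariate, where 24.0% of all genes were called, and 2 at an adjusted p under 0.01. With the array background covariate 4 were called, of which Usp36 alone was among the original 4. With the oligodendrocyte covariate and without CT 40, CT 62 and CT 64 the count was 3 (2.93% of all genes), of which 2, Usp36 and Usp22, were among the original 4. The counts between cycles, for the change in rhythm and for the 12-h wave were 0 in every setting run. The cause of these differences was not tested. Usp24, Usp31 and Usp54 have a second probe set each, correlated at 0.51, 0.73 and 0.63 with the first over 24 arrays. Range between arrays and the single array per time limit what small amplitudes can show.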
